A study of Mus musculus with 4 samples.

Results

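Benztropine, a muscarinic and histamine receptor antagonist that also inhibits dopamine uptake, is used against Parkinson's disease and has been studied as a stimulus of remyelination. Its effect on cultured mouse cerebral cells was followed here in both of the backgrounds in which it was given, without and with interferon-gamma (IFNγ). The arrays were the 2 with benztropine and the 2 without, of 4 in all, and the description covers 13716 of 23521 probe sets that carry 1 gene symbol. These were kept because their mean log2 signal over the 4 arrays was above 6.65, a level set by 1400 probe sets of olfactory and vomeronasal receptors, genes that are mostly silent outside sensory tissue. The level is the 95th percentile of those receptors, averaged over the arrays.

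The cells, taken from the brain of C3H/He mice on day 3 of life, were treated for 48 h with benztropine at 2.0 μM, with IFNγ at 250 IU/mL together with benztropine at 2.0 μM, with no agent (control), or with IFNγ at 250 IU/mL alone. The labels call them primary astrocytes, and they had been freed of loosely attached oligodendrocytes by shaking. RNA of 3 independent cultures was mixed on each Affymetrix Mouse Gene 2.0 ST array, so that a condition is 1 array and the spread between cultures cannot be measured. The median signal of all probe sets was 6.66 and 6.65 on the benztropine arrays without and with IFNγ, against 6.66 in control and 6.68 with IFNγ alone, and the share of named probe sets above an array's background ran from 57.6% to 58.8%. Of the 17 astrocyte markers 16 were above background, among them the water channel *Aqp4* and the glutamate transporter *Slc1a3*, and so were all 17 microglia and macrophage markers measured. Of 12 T and NK cell markers only 2 were.

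For each probe set the benztropine array was set against control, and the array with both agents against IFNγ alone. These differences share no array, and they are reported as log2 differences in this order, without and then with IFNγ. They share the normalization of the 4 arrays. IFNγ acts on genes through gamma-activated sites and interferon-stimulated response elements in their promoters, and in glia it turns on genes of antiviral defense and antigen presentation. Astrocytes support neurons and myelinating cells, and microglia are the resident macrophages of the brain.

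Most benztropine differences were small. Over the 13716 probe sets the SD of the difference was 0.129 without IFNγ and 0.131 with IFNγ, and the medians were 0.019 and -0.021. The differences had the same sign in both backgrounds in 55.9% of probe sets, with 3795 higher in both (27.7% of those examined) and 3870 lower in both (28.2%). Their Pearson correlation across probe sets was 0.222 and Spearman's rho 0.212, a description only, since probe sets are not independent and the arrays were normalized together. At least 1.2-fold in both backgrounds, a log2 difference of 0.26, was reached by 47 probe sets that were higher with benztropine (0.343% of those examined) and by 36 that were lower (0.262%), and 20 passed it in opposite directions (0.146%). A limma fit over all 23521 named probe sets, with additive terms for IFNγ and benztropine, called 0 higher and 0 lower at a Benjamini-Hochberg adjusted p of 0.05 (smallest adjusted p 0.684), with 846 and 847 at an unadjusted p under 0.05 (3.6% each). The shares of all probe sets given here (27.7% higher and 28.2% lower in both, 0.343% and 0.262% at 1.2-fold) stand as the background for the members of every list and family below. Of the 83 probe sets past 1.2-fold in both, 13 higher and 9 lower had at least 1 array below background, and a difference against such an array is one of deposited signals that does not measure a fold. Every gene given below is described by its values and the direction of its differences and has not passed a test. For probe sets past 1.2-fold in both, benztropine arrays that lie apart from the others are no further support. Such separation depends on how small the IFNγ difference is beside the benztropine differences.

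**Figure D1:**
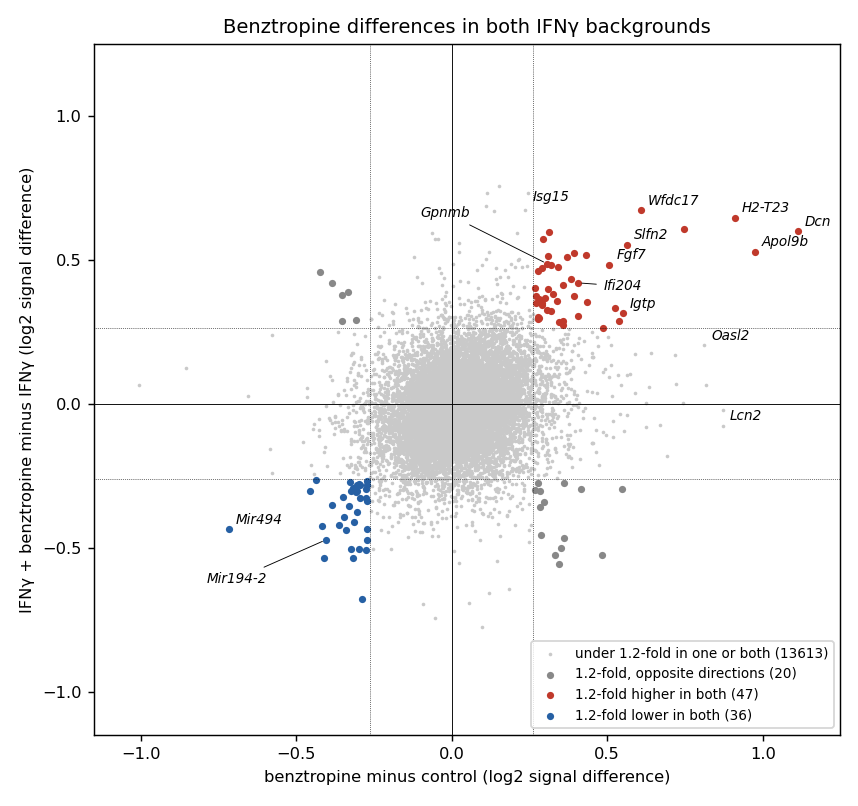
Each point is 1 of the 13716 probe sets, with the log2 signal difference of benztropine minus control on the horizontal axis and of both agents minus IFNγ on the vertical axis. Dotted lines mark 1.2-fold. The 47 probe sets in the upper right corner reach further from the origin than the 36 in the lower left, with *Dcn* and *H2-T23* farthest out, while *Lcn2* lies on the horizontal axis.

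Among named probe sets the higher side reached further than the lower side. At 1.3-fold in both backgrounds 11 probe sets were higher with benztropine, 4 were lower and 3 went opposite ways, and at 1.4-fold 6 were higher and 0 lower. At 1.1-fold the numbers were 470 (3.43%) higher, 347 (2.53%) lower and 373 opposite, so opposite pairs were then about as frequent as lower ones. Just inside the 1.2-fold threshold were *Zbp1* (0.488 and 0.264), *Ccrl2* (0.267 and 0.403) and *Tufm* (-0.436 and -0.265), and just outside were *Lsm10* (0.262 and 0.313), *Ccl3* (0.261 and 0.296) and *Abracl* (0.376 and 0.261).

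**Figure D2:**
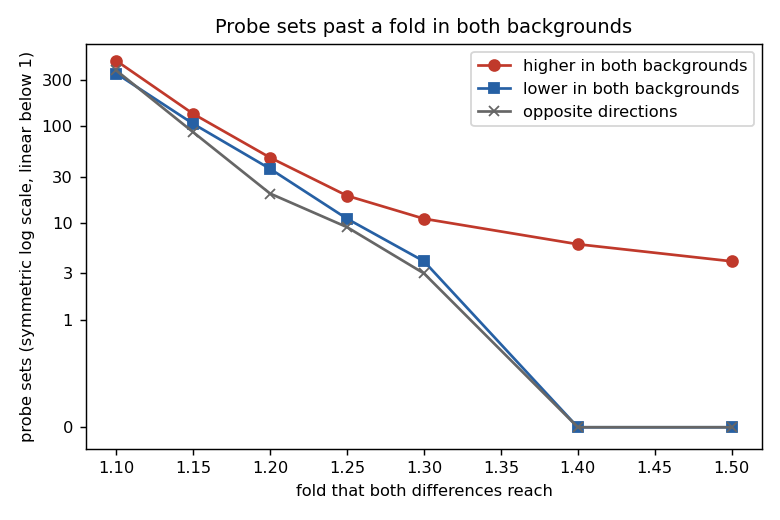
Number of probe sets whose benztropine differences both reach the fold on the horizontal axis, on a symmetric log scale that is linear below 1. From 470 higher, 347 lower and 373 opposite at 1.1-fold the counts come to 4, 0 and 0 at 1.5-fold.

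Several genes known to be induced by interferons were among the 12 largest higher differences. *H2-T23*, which encodes the non-classical MHC class I molecule Qa-1, had a log2 signal of 7.85 with benztropine, against 6.94 in control, and of 10.01 with both agents, against 9.37 with IFNγ alone. Benztropine was higher in both backgrounds by 0.91 and 0.65, and limma gave a mean difference of 0.78 ± 0.09 (SE, 1 residual degree of freedom before moderation, n = 2 arrays each, adjusted p = 0.684). The difference that IFNγ made in control cells was 2.43, and the benztropine array lay between control and IFNγ. *Slfn2*, a Schlafen gene that keeps lymphocytes and monocytes quiescent, had 8.63 with benztropine, against 8.07 in control, and 9.57 with both agents, against 9.02 with IFNγ. Its differences of 0.56 and 0.55 were nearly equal. Of 5 genes with Slfn symbols above background 2 were higher in both backgrounds and 2 lower (median 0.044). Among them *Slfn5* had 0.51 and 0.03 and *Slfnl1* -0.35 and -0.09. *Ifi204*, a member of the interferon-inducible HIN-200 family that senses DNA, had 8.38 with benztropine, against 7.97 in control, and 10.48 with both agents, against 10.06 with IFNγ. *Ifi209* of the same family had 7.94 with both agents, against 7.43 with IFNγ, but both arrays without IFNγ were below background. The 4 other members above background, *Aim2*, *Ifi202b*, *Ifi205* and *Ifi207*, had differences between -0.14 and 0.22 without IFNγ and between -0.08 and 0.03 with IFNγ.

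*Apol9b*, an interferon-induced gene of the apolipoprotein L family, had 8.15 with both agents, against 7.62 with IFNγ, and was below background at 6.11 with benztropine and 5.13 in control, so no fold is given without IFNγ. *Apol9a*, its close copy, was lower with benztropine in both backgrounds (-0.37 and -0.06), and cross-hybridization between copies was not tested. *LOC100041057*, a gene for which no role is given here, had 7.30 with benztropine, against 6.55 in control, where it was below background, and 8.48 with both agents, against 7.87 with IFNγ. *Igtp*, an immunity-related GTPase that guards vacuoles against parasites, had 8.39 with benztropine, against 7.84 in control, and 12.19 with both agents, against 11.88 with IFNγ. *Psmb9*, a catalytic subunit of the immunoproteasome, had 7.45 with benztropine, against 7.16 in control, and 9.41 with both agents, against 9.06 with IFNγ. *Zbp1*, a sensor of Z-form nucleic acid, had 7.90 with benztropine, against 7.42 in control, and 9.74 with both agents, against 9.48 with IFNγ. In each of these genes other than *Apol9a* the highest array was the one with both agents. This follows from their choice as higher with benztropine and from their higher signal with IFNγ, and is no separate result. *AW112010*, an interferon-induced long noncoding RNA, had 10.60 with both agents, against 10.32 with IFNγ, and 6.74 with benztropine, at least 1.04-fold above control, which was below background.

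**Figure D3:**
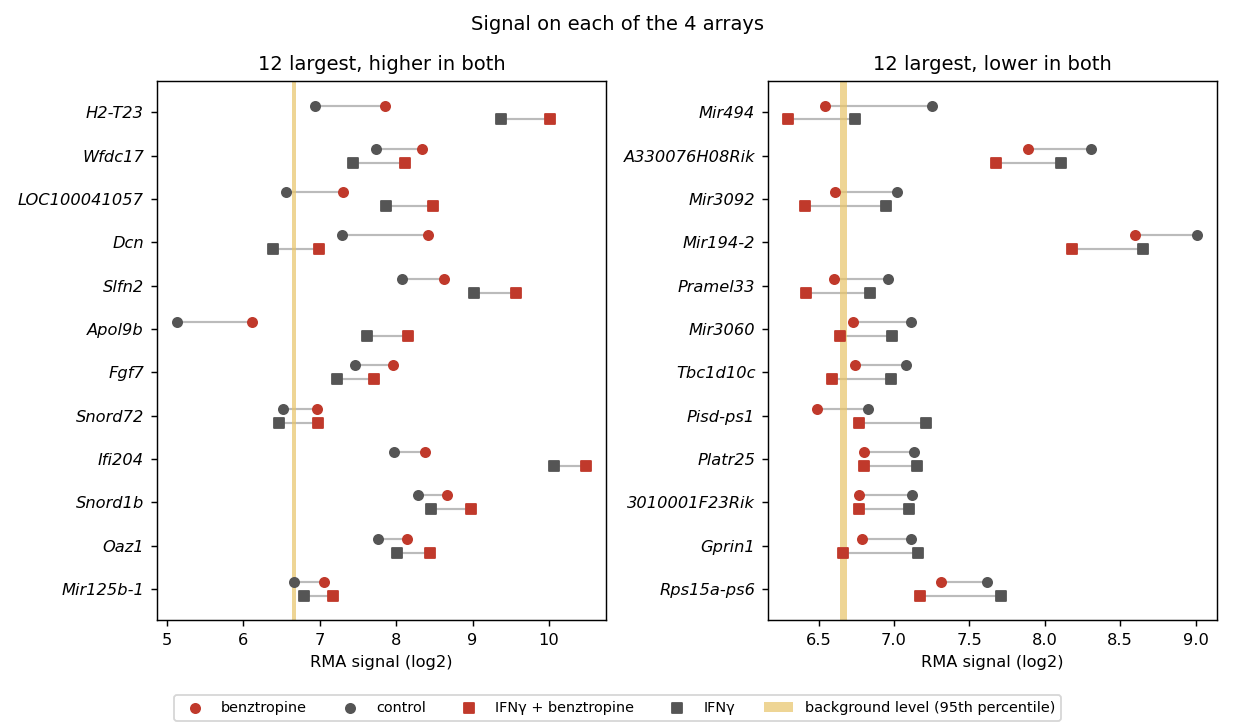
RMA log2 signal on each array of the 12 probe sets with the largest difference reached in both backgrounds, higher (left) and lower (right) with benztropine; red marks arrays with benztropine, grey those without, circles without and squares with IFNγ, and the band shows the arrays' background level. *H2-T23*, *Slfn2* and *Ifi204* stand at higher signal with IFNγ, while *Apol9b* without IFNγ, at 6.11 and 5.13, and part of the arrays of *Mir494* and *Mir3092* lie below background.

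The promoters of *H2-T23* and *Igtp*, which were higher at 1.2-fold in both backgrounds, and of *Isg15*, which was not, are shown because they hold an interferon-stimulated response element. The sequences are RefSeq's (GRCm38.p6), 250 bases up to the transcription start, 5′ to 3′ on the gene's strand, with matches on either strand to GAAA and GAAA set 2 bases apart in capitals. *H2-T23* lies on the minus strand (chr17:36032702-36032951), with the first matching base at -124 from the start.
H2-T23: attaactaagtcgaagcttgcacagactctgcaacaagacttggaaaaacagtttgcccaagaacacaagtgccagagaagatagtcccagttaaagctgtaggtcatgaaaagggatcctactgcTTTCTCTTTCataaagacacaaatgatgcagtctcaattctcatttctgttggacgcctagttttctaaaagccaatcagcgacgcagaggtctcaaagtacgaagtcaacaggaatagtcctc
*Igtp* lies on the plus strand (chr11:58199306-58199555), with the first matching base at -34.
Igtp: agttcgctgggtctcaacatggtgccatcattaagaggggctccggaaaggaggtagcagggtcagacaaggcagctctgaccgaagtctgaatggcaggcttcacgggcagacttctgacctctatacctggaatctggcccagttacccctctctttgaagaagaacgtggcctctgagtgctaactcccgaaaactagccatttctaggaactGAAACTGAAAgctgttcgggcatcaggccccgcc
*Isg15* lies on the minus strand (chr4:156200819-156201068), where overlapping matches run over 22 bases from -78.
Isg15: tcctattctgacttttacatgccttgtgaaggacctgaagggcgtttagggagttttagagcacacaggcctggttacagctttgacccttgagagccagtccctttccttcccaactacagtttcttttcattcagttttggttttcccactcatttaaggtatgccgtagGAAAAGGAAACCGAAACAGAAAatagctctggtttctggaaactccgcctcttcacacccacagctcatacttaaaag
In windows of 300 bases, 250 before and 50 after the start, the element was found in 3.99% of 27025 genes. It was found in 3 of the 29 genes higher in both backgrounds that have a promoter in the table (10.3%, *Igtp*, *Apol9b* and *H2-T23*) and in 0 of the 16 lower genes. The gamma-activated site TTCNNNGAA was found in 9.55% of all genes, in 4 of the 29 and in 1 of the 16. A match is a description of the sequence and was not tested as a binding site.

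The wider list of interferon-induced antiviral genes was higher with benztropine on balance. Like the other lists, it was chosen with earlier results of these data known, and it includes *Zbp1* and *Ifi204*, described above. Its counts are therefore a description and no independent support. Of 35 members above background, of 37 measured, 24 were higher in both backgrounds, 0 were lower in both and 11 went opposite ways, against 27.7% higher and 28.2% lower among all probe sets. The median difference was 0.192 over both backgrounds, 0.27 without IFNγ and 0.099 with IFNγ, against -0.002, 0.019 and -0.021 over all probe sets, and the means over both backgrounds ran from 0.03 to 0.51. In this and the other lists a gene high only with IFNγ could pass the filter, which took the mean of the arrays. Counts and medians without IFNγ can therefore include signals below background. At 1.2-fold in both only *Zbp1* and *Ifi204* were higher, and at 1.1-fold 11 members were. *Oasl2*, an antiviral oligoadenylate synthetase-like protein, had 9.27 with benztropine, against 8.46 in control, and 10.76 with both agents, against 10.56 with IFNγ, so that its difference was 0.81 without and 0.20 with IFNγ. *Isg15*, a ubiquitin-like modifier, had 7.14 with benztropine, against 6.91 in control, and 8.54 with both agents, against 7.87 with IFNγ, with the larger difference, 0.67, in the presence of IFNγ. *Usp18*, which removes Isg15 from proteins, and the helicase *Ddx60* had larger differences without IFNγ and values below 0 with it. Whether the differences of a gene differ between the backgrounds was not tested.

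**Figure D4:**
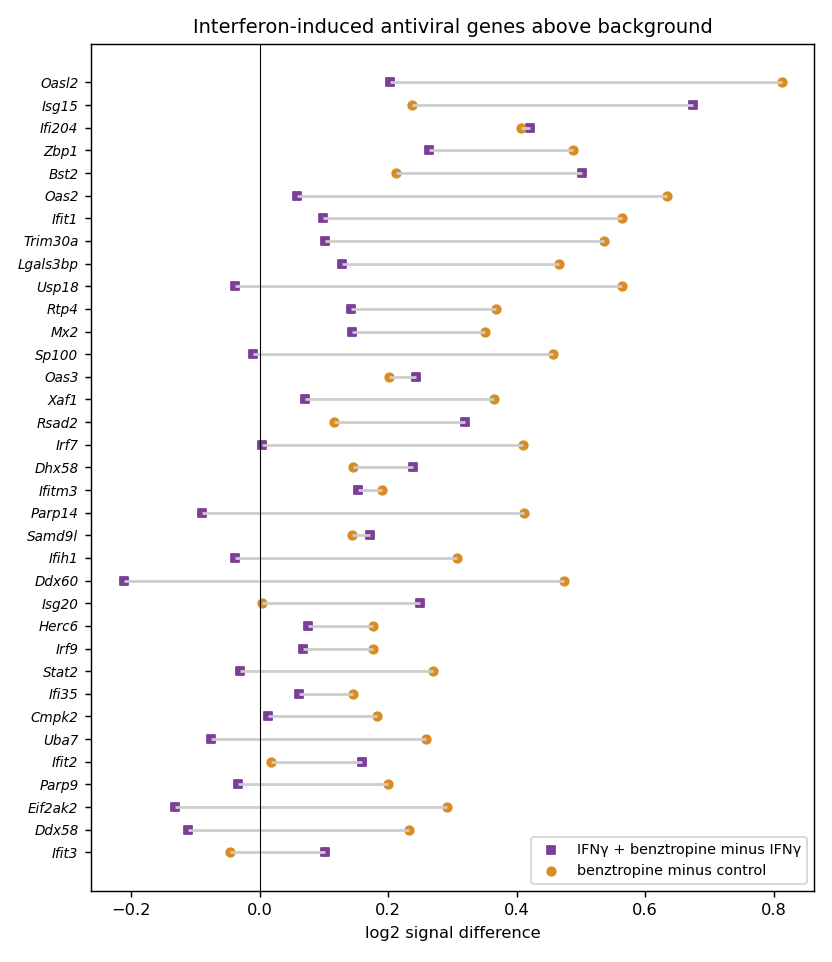
Benztropine differences of the 35 interferon-induced antiviral genes above background, ordered by their mean, with squares for both agents minus IFNγ and circles for benztropine minus control (log2 signal difference). Most circles lie right of the squares, and 24 genes have both marks right of 0.

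Interferon-inducible GTPases and antigen presentation followed this only in part. Of 12 interferon-inducible GTPases 4 were higher in both backgrounds and 1 was lower, and the median was 0.274 without IFNγ but -0.018 with IFNγ. *Gbp4* had 11.55 with both agents, against 11.49 with IFNγ. Without IFNγ it was below background, at 6.49 with benztropine and 5.67 in control. Its deposited difference there, 0.82, still enters the median without IFNγ, which thus rests partly on signals below background. Of 17 genes of MHC class I and peptide loading 9 were higher in both and 1 was lower, against 27.7% and 28.2% of all probe sets, with a median of 0.155 without and 0.089 with IFNγ. At 1.2-fold in both, which 0.343% of all probe sets reached, there were 2 of them, *H2-T23* and *Psmb9*. *Psmb8*, another immunoproteasome subunit, had 8.23 with benztropine, against 7.86 in control, and 9.77 with both agents, against 9.64 with IFNγ. Of 8 genes of MHC class II and loading 2 were higher in both and 2 lower. *H2-Aa*, a class II chain counted as higher (0.63 and 0.00), was below background on both arrays without IFNγ. *Ciita*, the master activator of class II genes, had differences of 0.22 and 0.28, whereas *H2-Ab1*, a class II chain, had -0.23 in both, with its arrays without IFNγ below background.

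Genes of macrophage activation and inflammation were also found on the higher side. *Wfdc17*, which encodes a small secreted protein of activated macrophages and microglia, had 8.34 with benztropine, against 7.74 in control, and 8.11 with both agents, against 7.44 with IFNγ, and was higher by 0.61 without and 0.67 with IFNγ (limma 0.64 ± 0.07, SE, adjusted p = 0.684). The lowest benztropine array was above the highest array without it, which was control at 7.74. *Ccl12*, a chemokine that attracts monocytes, had 7.38 with benztropine, against 6.85 in control, and 9.40 with both agents, against 9.07 with IFNγ. *Tnf*, the inflammatory cytokine, had 7.93 with benztropine, against 7.64 in control, and 8.93 with both agents, against 8.63 with IFNγ. *Ccrl2*, which binds the chemoattractant chemerin, and *Ltc4s*, an enzyme of leukotriene synthesis, were higher by 0.27 and 0.40 and by 0.36 and 0.27. *Dnase1l3*, a secreted DNase of macrophages, had 9.39 with both agents, against 8.91 with IFNγ, and was below background in control. In the lists *Ccl12*, *Wfdc17* and *Tnf* stood beside members that went either way. Of 16 chemokines 8 were higher in both and 4 lower, with means over both backgrounds from -0.12 to 0.43 (median 0.032). Of 23 acute-phase and NF-kB genes 11 were higher in both and 6 lower, with means from -0.24 to 0.64 (median 0.045). *Lcn2*, the acute-phase lipocalin, had 9.85 with benztropine, against 8.98 in control, but 8.70 with both agents, against 8.78 with IFNγ, so that its difference of 0.87 was not seen with IFNγ.

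Macrophage genes varied between the backgrounds. *Ms4a6d*, a membrane protein of macrophages, had 9.59 with benztropine, against 9.30 in control, and 9.78 with both agents, against 9.31 with IFNγ. The Ms4a and Clec4 families were chosen after their values were seen. Of 7 Ms4a genes 4 were higher in both, 0 lower and 3 went opposite ways, with a median of 0.289 without but 0.046 with IFNγ. Of 5 Clec4 genes, C-type lectins of myeloid cells, 4 were higher in both, with a median of 0.373 without and 0.177 with IFNγ. Of 5 perivascular macrophage markers 1 was higher in both and 4 went opposite ways, and their median was 0.252 without and -0.225 with IFNγ. *Clec4d*, a receptor for fungal and mycobacterial glycolipids, had differences of 0.37 and 0.24, and *Clec4a1* 0.45 and 0.18. *Fabp4*, a fatty acid carrier of adipocytes and macrophages, was higher by 0.31 and 0.33, with its arrays without IFNγ at 6.52 with benztropine and 6.21 in control, below background. The microglia and macrophage markers themselves had a mean log2 signal of 10.70 with benztropine, against 10.58 in control, and 10.81 with both agents, against 10.82 with IFNγ. Of these 17 genes 8 were higher in both and 0 lower, with a median of 0.117 without and 0.001 with IFNγ, and 0 reached 1.2-fold in both. *C1qa*, the initiating complement component, had 0.30 and 0.08, and *Aif1*, the calcium-binding protein Iba1, had 0.16 and 0.18. More cells of a type and more RNA per cell cannot be told apart in such cultures, and the part of cell composition in these differences was not tested.

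Of 29 lysosomal genes 18 were higher with benztropine in both backgrounds and 4 lower, against 27.7% and 28.2% of all probe sets, and 5 were higher at 1.1-fold, against 3.43%. The median was small, at 0.074 without IFNγ and 0.02 with IFNγ, the value left when the benztropine or the control array is omitted. *Gpnmb*, a glycoprotein of lysosomes in macrophages, had 9.89 with benztropine, against 9.59 in control, and 10.11 with both agents, against 9.62 with IFNγ. *Atp6v0d2*, a subunit of the proton pump that acidifies lysosomes, had 8.18 with benztropine, against 7.85 in control, and 7.91 with both agents, against 7.53 with IFNγ. Both passed 1.2-fold in both backgrounds, and in each the benztropine arrays were above both arrays without it. *Ctsz*, a lysosomal cathepsin, had smaller differences of 0.25 and 0.15. Genes of sterol synthesis and uptake did not lean either way, with 3 of 19 higher in both, 4 lower and a median of 0.005. Nor did the 12 genes of cholesterol efflux and lipid storage, with 2 higher in both, 4 lower, 6 in opposite directions and a median of 0.008. In this list the regulator *Srebf1* (-0.12 and -0.24) and the fatty acid synthase *Fasn* (-0.14 and -0.20) were lower in both. *Plin2*, which coats lipid droplets, was higher (0.18 and 0.13).

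Matrix and growth factor genes contributed the largest single difference. *Dcn*, which encodes the proteoglycan decorin, had 8.41 with benztropine, against 7.29 in control, and 6.99 with both agents, against 6.39 with IFNγ, where it was below background, and it was higher with benztropine by 1.11 without and 0.60 with IFNγ (limma 0.86 ± 0.14, SE, adjusted p = 0.684). Against the background level of the IFNγ array it was at least 1.28-fold higher with both agents. *Ogn*, a proteoglycan related to decorin, was lower in both (-0.11 and -0.23), and of 9 fibroblast and leptomeningeal markers above background 4 were higher in both and 2 lower (median 0.018). *Fgf7*, a fibroblast growth factor that acts on epithelia, had 7.96 with benztropine, against 7.46 in control, and 7.71 with both agents, against 7.23 with IFNγ, and both benztropine arrays were above both others. *Pdgfra*, a receptor for platelet-derived growth factor carried by oligodendrocyte precursors and mesenchymal cells, had 7.56 with benztropine, against 7.15 in control, and 7.41 with both agents, against 7.11 with IFNγ. *Sox10*, a transcription factor of the oligodendrocyte lineage, had 0.21 and 0.20, and *Ugt8a*, which makes the myelin lipid galactosylceramide, was lower in both (-0.21 and -0.32). Of 11 genes of this lineage 3 were higher in both and 3 lower (median 0.008). In the 27 genes of extracellular matrix 9 were higher in both and 9 lower, and *Col11a1*, a fibrillar collagen chain, had -0.15 and -0.30.

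Astrocyte markers leaned to the lower side. Of 16 above background 12 were lower with benztropine in both backgrounds and 2 were higher, against 28.2% lower and 27.7% higher among all probe sets, and the median was -0.09 over both backgrounds, -0.075 without and -0.084 with IFNγ. The differences were small, and the means over both backgrounds ran from -0.19 to 0.07. *Ntsr2*, a neurotensin receptor of astrocytes, had 9.10 with benztropine, against 9.32 in control, and 8.53 with both agents, against 8.70 with IFNγ. *Gja1*, which encodes the gap junction protein connexin 43, had 10.35 with benztropine, against 10.46 in control, and 9.99 with both agents, against 10.24 with IFNγ. *Slc1a3* (-0.10 and -0.21), *Aldh1l1*, an enzyme of folate metabolism (-0.08 and -0.20), *Slc4a4*, a bicarbonate transporter (-0.12 and -0.15), and *Aqp4* (-0.07 and -0.15) were lower in both. *Gfap*, the intermediate filament of reactive astrocytes, had 0.07 without and -0.04 with IFNγ, and the filament gene *Vim* had 0.12 and 0.02. The mean log2 signal of the list was 10.21 with benztropine, against 10.26 in control, and 9.98 with both agents, against 10.08 with IFNγ.

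**Figure D5:**
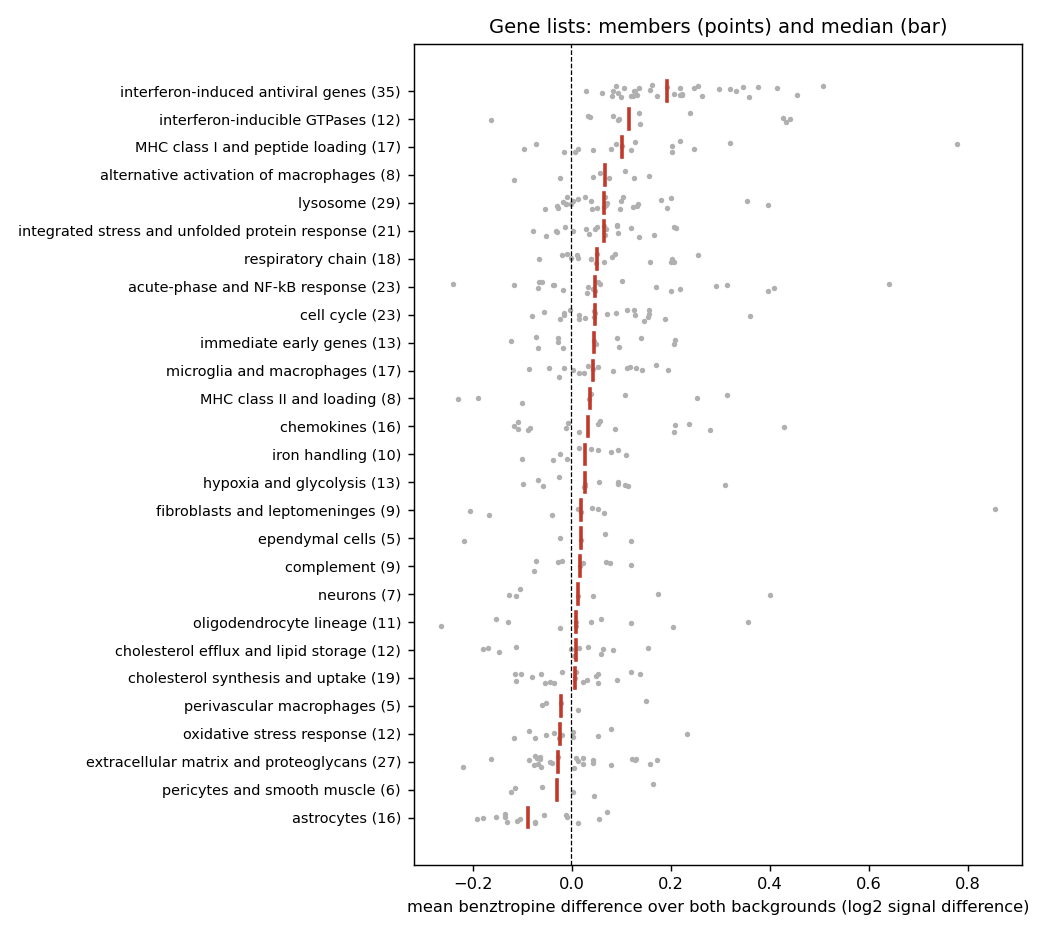
Mean benztropine difference over both backgrounds (log2 signal difference) of each member above background (grey points) of the lists with at least 5 such members, whose number follows the list's name; red bars are medians and the dashed line is the median of all 13716 probe sets, -0.002. Interferon-induced antiviral genes stand at the top with a median of 0.192 and astrocyte markers at the bottom with -0.09.

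Small nucleolar RNAs, a family chosen after its values were seen, made up 5 of the 47 higher probe sets (10.6%) and 0 of the 36 lower ones, against 79 of all 13716 (0.576%). Most box C/D small nucleolar RNAs guide ribose methylation of ribosomal RNA and are cut from the introns of host genes. Many of these hosts encode parts of the translation machinery. *Snord72* had 6.96 with benztropine, against 6.52 in control, and 6.98 with both agents, against 6.46 with IFNγ, and both arrays without benztropine were below background. *Snord1b* had 8.67 with benztropine, against 8.28 in control, and 8.98 with both agents, against 8.46 with IFNγ. *Snord70* (0.31 and 0.51), *Snord89* (0.28 and 0.30) and *Snord58b* (0.27 and 0.38) completed the group. Of 40 Snord genes above background 29 were higher in both backgrounds and 6 lower, against 27.7% and 28.2% of all probe sets, with a median of 0.166 over both, 0.186 without and 0.136 with IFNγ. The exceptions included *Snord13*, with -0.05 and -0.74, and *Snord118*, with -0.19 and -0.22. Of 21 box H/ACA genes, which guide pseudouridylation, 9 were higher in both and 5 lower, with a median of 0.026. Ribosomal protein genes were higher in both backgrounds in 27 of 50 and lower in 6 (median 0.073), and 0 reached 1.2-fold in both.

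Genes of various other kinds were scattered among the higher probe sets. Of those named here *Ndufs4*, *Cebpb*, *Cdk1*, *Hmox1* and *Ddit4* did not reach 1.2-fold in both backgrounds. *Oaz1*, the antizyme that restrains polyamine synthesis, had 8.14 with benztropine, against 7.76 in control, and 8.44 with both agents, against 8.01 with IFNγ. *Cox7b*, a subunit of cytochrome c oxidase, had 0.31 and 0.60, but its other probe set, below background, had -0.18 and 0.23. *Rab8a*, a GTPase of membrane traffic, had 0.44 and 0.35, whereas its other, brighter probe set had 0.20 and -0.01. Of 18 genes of the respiratory chain 11 were higher in both and 2 lower (median 0.049), with *Ndufs4*, a subunit of complex I, at 0.15 and 0.36. Of 21 genes of the integrated stress and unfolded protein response 12 were higher in both and 4 lower (median 0.064), with the transcription factor *Cebpb* at 0.20 and 0.22. *Cdk1*, the mitotic kinase, had 7.38 with benztropine, against 7.14 in control, and 7.55 with both agents, against 7.07 with IFNγ, while of 23 cell cycle genes 10 were higher in both and 3 lower (median 0.045). *Tubb3*, the neuronal class of beta-tubulin, had 7.05 with benztropine, against 6.73 in control, and 7.48 with both agents, against 6.99 with IFNγ, and the neuronal markers as a list had a median of 0.012. *Hmox1*, the heme-degrading enzyme, had 0.14 and 0.32, and *Ddit4*, an inhibitor of the mTOR pathway, 0.40 and 0.21. *C1rb*, one gene of the complement protease C1r, was higher by 0.28 and 0.46, while its close copy *C1ra* had -0.07 and -0.08. The other higher probe sets were those of *Rps12-ps24*, *2900060B14Rik*, *Thap11*, *Bricd5*, *Sh2d4a*, *Gm19399*, *Vopp1*, *Gm7367*, *Imp3*, *Mrpl42* and *Maip1*, with measured differences between 0.27 and 0.54. Of these *Bricd5*, *Mrpl42* and *Gm7367* were below background on 1 or both arrays without benztropine, and *Imp3* has another probe set with -0.02 and 0.16. The olfactory receptors *Olfr661* (0.34 and 0.36) and *Olfr519*, below background on both arrays without benztropine (at least 1.12-fold and 1.19-fold), belong to the family that set the background, of which 72 genes lay above it, 12 of them higher and 22 lower in both backgrounds.

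The remaining lists had medians between -0.03 and 0.066 and no member at 1.2-fold in both. In 13 immediate early genes 6 were higher with benztropine in both backgrounds and 3 lower, with *Ier3* at 0.26 and 0.15 and *Ier2* at 0.31 and 0.10. Hypoxia and glycolysis had 6 higher and 4 lower of 13, iron handling 5 and 2 of 10, oxidative stress 3 and 5 of 12, and complement 3 and 3 of 9. Of 8 genes of alternative macrophage activation 2 were higher, *Clec7a*, a fungal glucan receptor (0.10 and 0.16), and *Arg1*, arginase of macrophages (0.15 and 0.06), and 1 was lower, *Klf4* (-0.05 and -0.18). Of 6 pericyte and smooth muscle markers 2 were higher and 3 lower, of 5 ependymal markers 2 and 2, and the 3 endothelial markers above background went opposite ways.

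MicroRNA genes, a family chosen after its values were seen, stood on both sides. They made up 1 of the 47 higher probe sets (2.13%) and 7 of the 36 lower ones (19.4%), against 132 of all 13716 (0.962%). The mature sequences of these 8 genes follow because the array names only the gene, and the sources used here do not say whether its probes read the precursor or the mature form. They are RefSeq's (GRCm38.p6), with the seed, bases 2 to 8, in capitals. First is the gene that was higher in both backgrounds, *Mir125b-1* on chromosome 9.
miR-125b-5p: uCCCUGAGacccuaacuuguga
miR-125b-1-3p: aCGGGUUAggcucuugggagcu
The genes lower in both were *Mir494*, *Mir329* and *Mir665* on chromosome 12, *Mir194-2* on chromosome 19, *Mir3092* on chromosome 3, *Mir3060* on chromosome 11 and *Mir1931* on chromosome 10.
miR-494-5p: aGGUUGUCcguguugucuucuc
miR-494-3p: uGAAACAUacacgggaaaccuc
miR-329-5p: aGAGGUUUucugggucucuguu
miR-329-3p: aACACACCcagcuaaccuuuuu
miR-665-5p: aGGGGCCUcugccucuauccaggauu
miR-665-3p: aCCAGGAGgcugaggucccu
miR-194-5p: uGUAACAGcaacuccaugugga
miR-194-2-3p: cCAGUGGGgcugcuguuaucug
miR-3092-5p: aGGGGAAAaugccuuucuccca
miR-3092-3p: gAAUGGGGcuguuuccccucc
miR-3060-5p: gGGAGUGCuucgugcuucug
miR-3060-3p: cCAUAGCAcagaagcacuccca
miR-1931: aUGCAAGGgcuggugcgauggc
The 15 mature sequences have 15 distinct seeds, so no seed was shared.

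*Mir125b-1*, whose product is abundant in the brain, had 7.05 with benztropine, against 6.66 in control, and 7.17 with both agents, against 6.79 with IFNγ, the control array being below background. *Mir494* had 6.54 with benztropine, against 7.25 in control, and 6.30 with both agents, against 6.74 with IFNγ. Both of its benztropine arrays were below background and both others above it, and the differences of the deposited signals were -0.72 and -0.44 (limma -0.58 ± 0.10, SE, adjusted p = 0.684). Against the background level of the benztropine arrays it was at least 1.52-fold lower without IFNγ and at least 1.07-fold lower with it. *Mir194-2* had 8.60 with benztropine, against 9.01 in control, and 8.18 with both agents, against 8.65 with IFNγ. *Mir3092* had 6.61 with benztropine, against 7.02 in control, and 6.41 with both agents, against 6.95 with IFNγ, again with both benztropine arrays below background. *Mir3060* had 6.73 with benztropine, against 7.11 in control, and 6.64 with both agents, where it was below background, against 6.99 with IFNγ. *Mir494*, *Mir329* and *Mir665* belong to the imprinted Dlk1-Dio3 cluster of chromosome 12, where 11 microRNA genes were above background. Of the 8 others *Mir673* (-0.07 and -0.25), *Mir1188* (-0.29 and -0.15) and *Mir667* (-0.45 and -0.09) were lower in both and *Mir540* was higher in both (0.33 and 0.06). Over all 128 microRNA genes above background 28 were higher in both and 48 lower (median -0.017), against 27.7% and 28.2% of all probe sets.

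Protein-coding genes made up 44.4% of the lower probe sets (16 of 36) and 76.6% of the higher ones (36 of 47), both below their share of 93.1% in all 13716. *Slc8a1*, the sodium-calcium exchanger, had 9.03 with benztropine, against 9.30 in control, and 9.05 with both agents, against 9.33 with IFNγ. *Gabra2*, a subunit of the GABA-A receptor, had 7.78 with benztropine, against 8.08 in control, and 7.35 with both agents, against 7.64 with IFNγ. *Gprin1*, a promoter of neurite outgrowth, had 6.79 with benztropine, against 7.11 in control, and 6.66 with both agents, against 7.16 with IFNγ. *Tbc1d10c*, an inhibitor of calcineurin, had 6.74 with benztropine, against 7.08 in control, and 6.59 with both agents, below background, against 6.98 with IFNγ. In *Slc8a1*, *Gprin1* and *Tbc1d10c* both benztropine arrays lay below both others, whereas the arrays of *Gabra2*, which had a larger IFNγ difference, overlapped. *Emb*, a chaperone of lactate transporters, had -0.30 and -0.38, and *Ube2v2*, a partner of ubiquitin-conjugating enzymes, -0.30 in both. Another probe set of *Emb*, below background, had 0.04 and -0.05. *A330076H08Rik*, a long noncoding RNA, had 7.89 with benztropine, against 8.31 in control, and 7.68 with both agents, against 8.11 with IFNγ, and 5 of the 36 were annotated as long noncoding RNAs. *Tufm*, a mitochondrial elongation factor, and *Sorbs2*, a cytoskeletal adaptor, were each called by 1 probe set, while their other, brighter ones had 0.04 and 0.11 and -0.06 and -0.18. *Pramel33*, *Pisd-ps1*, *Platr25*, *3010001F23Rik* and *Rps15a-ps6* were the remaining probe sets among the 12 largest on this side, with differences between -0.32 and -0.54, and *Pramel33* and *Pisd-ps1* had benztropine arrays below background. The other lower probe sets were those of *Lcn12*, *Krtap5-1*, *Krtap5-2*, *Mdh1b*, *Sned1*, *Ppp1r14c*, *Amer1*, *Gm8672*, *Gm10635*, *Gm14057*, *Gm3993*, *Ptma-ps2*, *9530091C08Rik*, *2310067E19Rik* and *9330159M07Rik*, with measured differences between -0.27 and -0.51. The arrays of *Gm14057*, *Ppp1r14c* and *Ptma-ps2* with both agents were below background, where *Gm14057* was at least 1.51-fold lower. *Krtap5-1* has another probe set with 0.17 and -0.29, and *Ppp1r14c* has one, below background, with 0.05 and -0.11.

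The receptors and transporters on which benztropine acts were near background. Of 10 measured, 4 were above it. *Chrm1*, the M1 muscarinic receptor, had 6.92 with benztropine, against 6.83 in control, and 6.90 with both agents, against 6.87 with IFNγ. *Hrh1*, a histamine receptor, had 0.18 without and -0.14 with IFNγ, and *Slc6a3*, the dopamine transporter, had 0.01 and -0.05. *Kcnh2*, the hERG potassium channel, was lower in both (-0.25 and -0.20). *Chrm3* was above background only with benztropine, at 6.93, and *Chrm2*, *Chrm4*, *Chrm5*, *Slc6a2* and *Slc6a4* were below background on all 4 arrays. The study also names genes for its benztropine array, with changes called at 1.5-fold. It reports *Dcn* and *Lcn2*, described above, as higher. It also states that cells given both agents did not differ in their transcriptomes from cells given IFNγ alone. *Rmnd5a*, of a ubiquitin ligase complex, which it reports as lower, had -0.09 and 0.04. *Lzts2*, a tumor suppressor candidate, which it reports as not differing, had -0.13 and 0.17. *Klra9* and *Mir300*, reported as higher, and *Hamp*, reported as lower, were below background on all arrays. *Mup4* and *H2-T3* were not analysed here.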

How the data were processed

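The 4 arrays each held RNA of 3 cultures mixed in equal amounts. The authors processed the scans with RMA in Affymetrix Expression Console (background correction, quantile normalization and a summary per probe set) and deposited log2 signals. These were used as deposited. No genome build for the array is given in the sources used here. The labels give Advanced DMEM as the medium, whereas the study's methods give Basal Medium Eagle.

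Of 41345 probe sets, 23521 carry 1 gene symbol in the platform annotation (22180 symbols), 1820 carry several and 16004 none, and only the first were used. Background was the mean of the arrays' 95th percentiles of 1400 receptor probe sets. A probe set was called when benztropine minus control and both agents minus IFNγ had the same sign and were each at least 1.2-fold. The limma fit (limma 3.58.1, R 4.3.3) used the log2 values of all 4 arrays with additive terms for IFNγ and benztropine, so its 1 residual degree of freedom mixes array error with non-additive effects of the agents. With 1 array per condition the number of arrays limits the precision, and p-values do not measure the spread between cultures. The steps were also run on simulated data with independent noise and additive effects only. That simulation cannot address shared array effects or non-additive effects of the agents.

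Genes named are the 12 probe sets each way with the largest difference reached in both backgrounds, the 2 members with the largest mean difference in each list among those with 1 sign, the benztropine targets and the genes that the study names for benztropine. Not every list member picked by this rule is given in the text. Other named genes and the families were chosen after their values were seen. The lists and their members, 31 in all, were chosen with earlier results of these data known. In lists and families a gene was the mean of its probe sets. The alternatives were other folds and backgrounds, 1 value per symbol, probe sets with several symbols kept, quantile normalization, removal of a loess trend of span 0.3, leaving out each array, and for limma other variance and filter settings. Promoter and microRNA sequences are from RefSeq tables (GRCm38.p6). Python 3.11.15 with numpy 2.4.6, pandas 2.3.3, statsmodels 0.14.6 and matplotlib 3.10.9 was used.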

Additional observations from a re-analysis of the deposited data

Results flagged for a closer look

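*Hrh1* had a benztropine difference of 0.18 without IFNγ and of -0.14 with IFNγ, and drew attention because the signs are opposite. The median difference of the perivascular macrophage markers was 0.252 without IFNγ and -0.225 with IFNγ, over 5 genes of which 4 differed in sign between the backgrounds. With 1 array per condition neither difference was tested. Of 6002 probe sets above background without a gene symbol, which the report does not use, 152 were higher (2.53%) and 318 lower (5.3%) by at least 1.2-fold in both backgrounds, and 216 passed it in opposite directions (3.6%), against 0.343%, 0.262% and 0.146% of the named probe sets. The balance between higher and lower was thus the reverse of that in the named probe sets, and this difference was not tested.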

How the results depend on the processing

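The number of probe sets called in both backgrounds depends on the fold and on the filter. At 1.1-fold 470 were higher and 347 lower with benztropine, at 1.3-fold 11 and 4, and at 1.5-fold 4 and 0. With background at the receptors' 99th percentile, which left 9415 probe sets, 29 were higher and 17 lower, and with no filter on low values 141 and 153, with 193 in opposite directions. Leaving out any 1 array leaves 1 of the differences and no agreement to ask for, so the counts ran from 291 to 440 higher and from 215 to 386 lower (291 and 386 without the benztropine or the control array, 440 and 215 without the array with both agents or with IFNγ). Other settings kept the counts within 1.5 times: above background on all 4 arrays 34 and 27, quantile normalization 42 and 36, loess 44 and 36, 1 value per symbol 46 and 31, and several-symbol probe sets kept 57 and 41. Of the 83 probe sets called, 70 were called again under quantile normalization and 70 under loess. Of 182 gene values under quantile normalization or loess 0 reversed, but the deposited signals were already quantile normalized and many of these genes were picked for large differences. Of 122 list medians under other filters or normalizations 18 moved. A median counted as moved when it shifted by more than the SD between the list's medians without and with IFNγ. Lists that differ most between backgrounds can therefore hardly move. The limma fit called 0 each way under each of its settings, with a smallest adjusted p between 0.249 and 1. No paired analysis was possible because the labels give no replicate numbers shared by the groups and each condition has 1 array.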
